A study of Mus musculus with 2 samples.

Results

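The C1q-negative monocytes described here were skin cells with myeloid and Lyz2 transcripts but without the complement C1q transcripts of tissue macrophages. The members were chosen by their measured UMI counts, so the genes of the rule are no findings. A barcode was a member when it had at least 200 genes, at most 10% mitochondrial UMIs, at least 3 UMIs of Tyrobp and Fcer1g together, at least 3 of Lyz2, at most 2 of C1qa, C1qb and C1qc together, and fewer than 20 of the MHC class II genes H2-Aa, H2-Ab1 and Cd74. It also had less than 5% of its UMIs from S100a8 and S100a9 and no UMI of Cd207, Mcpt8, Cd3d, Cd3e or Cd3g, limits meant to leave out neutrophils, Langerhans cells, basophils and T cells. The gate held 353 of the 18796 cells past the filters on genes and mitochondrial UMIs. Of these members 340 were in the IMQ-D5 library and 13 in the Ctrl library. Both libraries came from dorsal skin of wild-type C57BL/6 female mice aged 2 months, and the IMQ-D5 mice had imiquimod, a TLR7 agonist that causes psoriasis-like inflammation, put on the skin daily for 5 days. The Ctrl group is described no further than as control, and neither the number of mice per library nor pooling was given in the sources used here. Each condition had 1 library of digested, dead-cell-depleted skin, so no difference was tested, and every interval below is a 95% interval that covers counting error only.

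Monocytes are made in the bone marrow and reach inflamed tissue through the blood. In mice, classical monocytes carry Ly6C, encoded by Ly6c2, and leave the marrow through the chemokine receptor Ccr2, whereas patrolling monocytes are low in Ly6C, depend on the transcription factor Nr4a1, carry Fcgr4 and Cx3cr1 and stay along the vessel wall. Monocytes that settle in tissue can turn into macrophages, which in skin commonly express C1q and the mannose receptor Mrc1.

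The IMQ-D5 library held 144054978 UMIs in 9414 barcodes and the Ctrl library 123088680 UMIs in 10857 barcodes, with no listed barcode under 500 UMIs. IMQ-D5 members had a median of 4608.5 UMIs (552 to 70558) and Ctrl members a median of 6669 UMIs (2275 to 14871). Some deep members also held genes of other skin cells. In 26 of 340 IMQ-D5 members (7.65%) and 3 of 13 Ctrl members (23.1%), the fibroblast, keratinocyte and vessel, nerve, pigment and blood marker lists together took more than 1% of UMIs, and these are called mixed barcodes below, a class defined after seeing the data. The mixed barcodes held 33.0% of the UMIs of the IMQ-D5 members and 32.1% of those of the Ctrl members. Scrublet, a doublet caller, marked 7 IMQ-D5 members and 1 Ctrl member, all of them mixed. Of 23 barcodes present in both libraries, 1 was an IMQ-D5 member. Counts over gene lists are given over all members and without those barcodes, and levels are over all members unless stated.

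**Figure D1:**
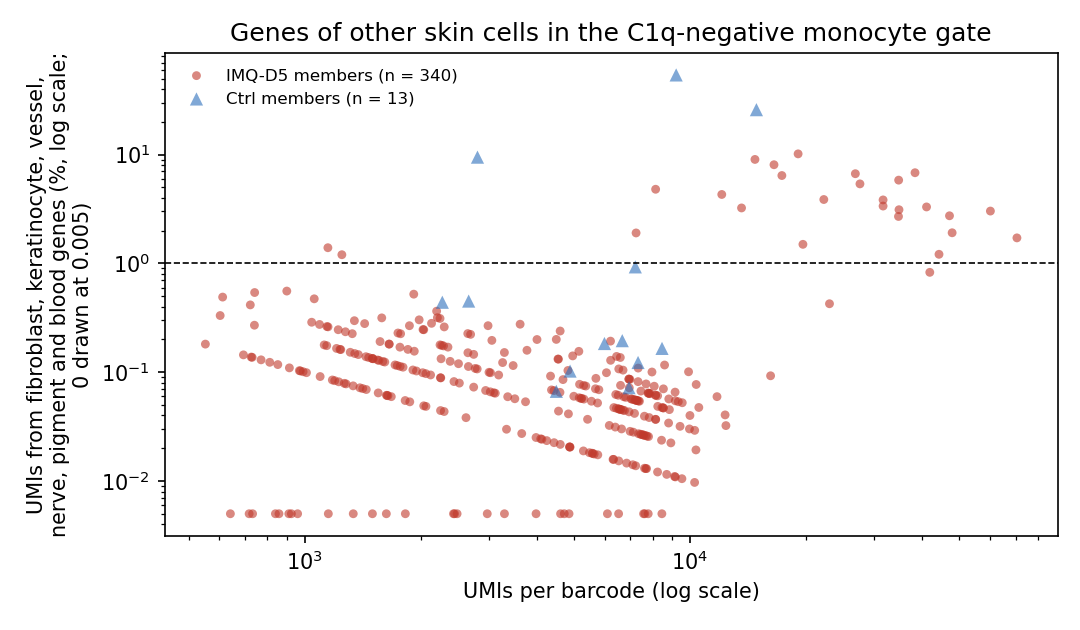
Share of UMIs from fibroblast, keratinocyte, vessel, nerve, pigment and blood marker genes (vertical, percent, log scale, 0 drawn at 0.005) against UMIs per barcode (horizontal, log scale) for each of the 340 IMQ-D5 members (circles) and 13 Ctrl members (triangles). The dashed line is the limit of 1%, and 26 IMQ-D5 and 3 Ctrl barcodes lie above it.

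The members were then set against the marker genes that go with their working name of inflammatory monocytes. Lyz2, the lysozyme gene of the gate, had a median of 29.5 UMIs per IMQ-D5 member (3 to 354). Among IMQ-D5 members, Chil3, which encodes the chitinase-like lectin Ym1, had a UMI in 193 cells (56.8%), Ccr2 in 170 cells and Ly6c2 in 127 cells (37.4%). Arg1, the arginase of alternatively activated macrophages, had a UMI in 8 of 340 IMQ-D5 members (2.35%) and in 0 of 13 Ctrl members. Thinned to 1000 UMIs per cell, which 315 of the IMQ-D5 members reached, the shares were 42.5% for Chil3, 22.5% for Ccr2, 16.8% for Ly6c2 and 2.54% for Arg1. In fibroblast-gated cells of the same library, which should lack these genes, the thinned shares were 0.0546% for Chil3 and 0 of 3660 cells for Ccr2, Ly6c2 and Arg1, against median depths of 4608.5 UMIs in members and 13679 UMIs in fibroblast-gated cells. The exact 95% interval of that 0 reaches 0.101%. All 4 genes were thus above the share in fibroblast-gated cells, but at this depth most members had no Ly6c2 UMI and nearly all had no Arg1 UMI. The cells are therefore called C1q-negative monocytes, after their gate, and not inflammatory monocytes. Chil3 lies on the minus strand at chr3:106147554-106167564, Ly6c2 on the minus strand at chr15:75108158-75111970 and Arg1 on the minus strand at chr10:24915221-24927484 of GRCm38.

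Marker lists of the other cell types that the gate could hold were also read. In IMQ-D5 members without mixed barcodes, 10 of 12 neutrophil genes had a UMI, and the list took a median of 0.0138% and at most 5.30% of a cell's UMIs, with Camp and Ngp at 0. The dendritic cell list summed to 23.1 CPM, the count scaled to the total UMIs of the class, with Cd209a, Itgae, Mgl2 and Cd207 at 0 among its 12 genes. The lymphocyte list summed to 7.48 CPM, with 6 of 9 genes at 0, and the mast cell, basophil and eosinophil list to 8.84 CPM, with 9 of 13 genes at 0. The gate itself set S100a8, S100a9, Cd207, Mcpt8 and the Cd3 genes.

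C1q-negative monocytes made up 4.0% (3.59 to 4.44, Clopper-Pearson) of IMQ-D5 cells and 0.126% (0.0672 to 0.216) of Ctrl cells. The share was 31.7-fold (18.3 to 60.1) higher in the IMQ-D5 library, and 38-fold (20.4 to 80.1) higher with 314 IMQ-D5 and 10 Ctrl members left after removal of mixed barcodes. C1q-positive macrophages, gated alike but with 3 or more C1q UMIs, were 49 of 8499 IMQ-D5 cells (0.577%) and 8 of 10297 Ctrl cells (0.0777%), a ratio of 7.42-fold (3.49 to 18.1). With any level of MHC class II they were 98 IMQ-D5 cells and 56 Ctrl cells, a ratio of 2.12-fold (1.51 to 3.0). The C1q-negative cells that the gate left out for 20 or more MHC class II UMIs numbered 63 in IMQ-D5 and 69 in Ctrl, a ratio of 1.11-fold (0.773 to 1.58), whose interval spans equality. These are shares of the cells recovered, and cells per area of skin were not measured.

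The 340 IMQ-D5 members fell into 7 subgroups by Leiden clustering without the gate genes. The subgroups are described by their leading genes and by gene lists with no test, since the same genes could form them. The list counts below therefore describe the subgroups and give them no separate support. Subgroup 1 was the most numerous with 118 cells, and had Chil3 at 2999 CPM (2880.2 to 3121) in 104 cells and Ly6c2 at 649 CPM (595 to 707) in 92 cells. It also had Thbs1, the matrix protein thrombospondin-1, at 1904 CPM (1809 to 2002) and Cd14, the lipopolysaccharide co-receptor, at 4834 CPM (4683 to 4989). Il1b, the precursor of the cytokine IL-1β, was at 11464 CPM (11231 to 11701) in 115 of its cells, and Ptgs2, the inducible cyclooxygenase, at 2945 CPM (2828 to 3066). Subgroup 1 thus held the classical monocyte genes together with inflammatory mediators: 12 of 18 genes of the classical list were at least 2-fold above the other members, against 6.44% of all 7784 genes measured, among them F13a1, the coagulation factor XIII A chain.

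Subgroup 3, with 66 cells, had the genes of patrolling monocytes. Fcgr4, the receptor FcγRIV, stood at 1337 CPM (1186 to 1502) in 58 of its cells, against 59.8 CPM in subgroup 1. Cd300e, an activating myeloid receptor, was at 476 CPM (387 to 578), Adgre4, an adhesion receptor, at 466 CPM (379 to 568), and Nr4a1 at 961 CPM (833 to 1102). All 12 genes of the patrolling list were at least 2-fold above the other members, Ace, Spn and Treml4 included, against 10.3% of all genes. In subgroup 1 there were 0 of 12, and in subgroup 6, described below, 6 of 12 against 5.88% of all genes, among them Nr4a1, Spn and Adgre4. Cx3cr1, the receptor that holds patrolling monocytes to vessels, was at 217 CPM in subgroup 3 and 24.9 CPM in subgroup 1. Subgroup 3 was low in secreted mediators: Cxcl2, a neutrophil chemoattractant, was at 749 CPM against 13783 CPM in subgroup 1, Ptgs2 at 37.7 against 2945 CPM and Ly6c2 at 33 against 649 CPM.

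Subgroup 5 had only 13 cells and held every Arg1 UMI of the members, 469 in 8 cells with at most 92 in 1 cell. Its Arg1 level was 5612 CPM (5115 to 6143), and the other 327 IMQ-D5 members had none. Cxcl1 and Cxcl3, chemoattractants for neutrophils, were at 9752 CPM and 4559 CPM, and Spp1, which encodes osteopontin, at 1603 CPM. Hmox1, the heme oxygenase, was at 2501 CPM in 10 cells, and Fth1, the ferritin heavy chain, at 51235 CPM in all 13 cells. Single cells set several of these levels, since 1 cell had 271 of the 417 Mmp12 UMIs (Mmp12 encodes macrophage elastase) and 1 cell had 449 of the 815 Cxcl1 UMIs. In this subgroup 18 of 29 genes of the glycolysis and hypoxia list were at least 2-fold above the other members, against 4.89% of all genes, among them Hilpda, a lipid droplet protein, in 10 cells. Macrophage genes were present too: Pf4, platelet factor 4, was at 826 CPM in subgroup 5 against 842 CPM in C1q-positive macrophages, and Mrc1 at 515 against 844 CPM. Arg1 in the macrophages was likewise in few cells, with 146 of 147 UMIs in 1 of 49 cells.

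The other subgroups were shallow or were led by genes of other cells. Subgroup 2 (106 cells) had a median of 1667 UMIs, the lowest of the 7, and was led by Gm26917 and Gm42418, whose reads overlap ribosomal RNA sequence, with Gm42418 at 5259.6 CPM. Subgroup 6 (11 cells) had S100a9 at 24886 CPM, where the gate allowed less than 5% of a cell's UMIs for S100a8 and S100a9 together, with Il1r2, the decoy receptor for IL-1, at 882 CPM. It was led by Gm5483, Stfa2, Stfa2l1 and Hdc, with a UMI in 3, 1, 6 and 11 of its cells. Of the neutrophil list, Csf3r had a UMI in 9 of its 11 cells, Retnlg in 5 and Stfa2 in 1, while Camp and Ngp had none. Cxcr2 and Mmp9 of that list were at least 2-fold above the other members. Subgroups 4 (16 cells, 14 of them mixed) and 7 (10 cells, all mixed) were led by keratinocyte genes such as Krt14, at 10827 CPM in subgroup 4, and fibroblast genes such as Dcn, at 12506 CPM in subgroup 7. When the clustering was made finer, at a resolution of 1, 57 of the 66 cells of subgroup 3 stayed within 1 subgroup of 58 cells. All 13 cells of subgroup 5 fell in 1 subgroup of 22 cells, together with other members. Subgroup 1 was divided, with 62 of 118 cells in its largest fragment.

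**Figure D2:**
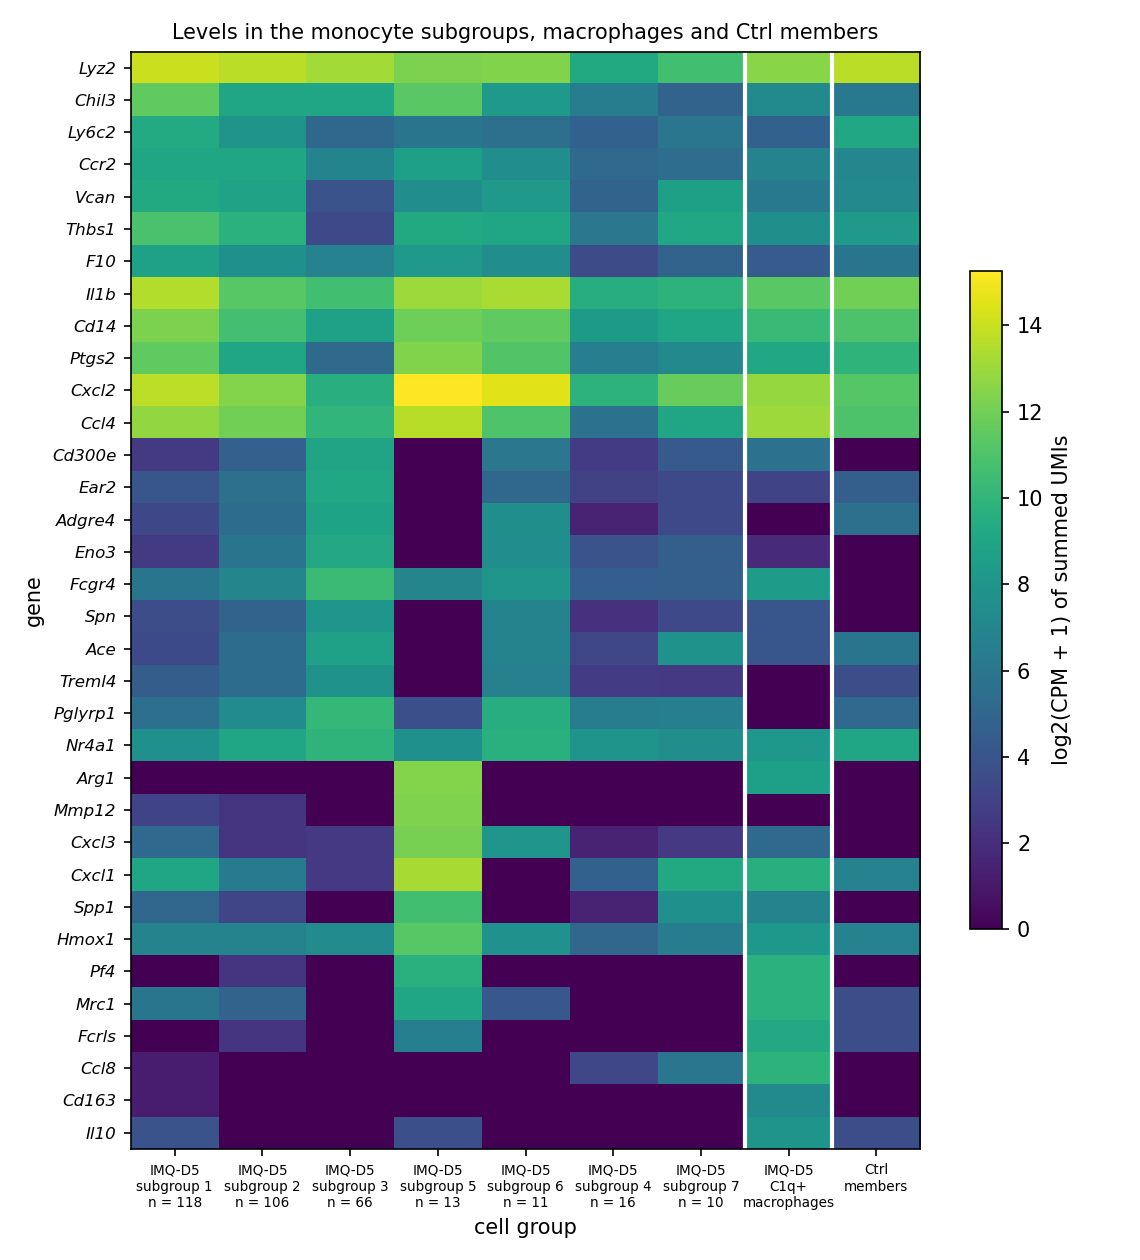
Levels of 34 genes (rows, log2 of CPM + 1, colour) in the 7 subgroups of the IMQ-D5 members, the IMQ-D5 C1q-positive macrophages and the Ctrl members (columns). Chil3, Ly6c2 and Il1b are high in subgroup 1, Fcgr4 and Cd300e in subgroup 3 and Arg1 and Mmp12 in subgroup 5, while Fcrls, Cd163 and Il10 are highest in the macrophage column.

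Read cell by cell, the counts also showed Ly6c2 and Fcgr4 apart. The same genes could form the subgroups, so this gives the subgroups no separate support. Among the 315 IMQ-D5 members thinned to 1000 UMIs, Fcgr4 had a UMI in 1 of 53 cells with Ly6c2 (1.89%) and in 64 of 262 cells without it (24.4%). Chil3 had a UMI in 39 of the 53 cells with Ly6c2 (73.6%) and in 95 of the 262 without (36.3%). Nr4a1 had a UMI in 39 of 65 cells with Fcgr4 (60.0%) and in 65 of 250 cells without (26.0%), where fibroblast-gated cells gave 25.8%. Plac8, a gene of both monocyte kinds, did not separate cells by Fcgr4, which had a UMI in 20.6% of cells with Plac8 and in 20.7% of cells without. Chil3, however, had a UMI in 53.9% of cells with Plac8 and in 30% of cells without. Plac8 also had a UMI in 31.3% of the thinned fibroblast-gated cells.

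The comparison with C1q-positive macrophages of the same IMQ-D5 library shows what distinguished the monocytes within 1 library. These macrophages were the 49 cells with fewer than 20 MHC class II UMIs, of 98 with any level. Against macrophages of any level, 51 ratios of named genes moved outside their interval with the same sign. A further 2 reversed and 58 stayed inside. A gene with at least 20 UMIs over both classes was called when the classes differed by 2-fold or more and the interval excluded equality, with the 16 gate genes left out. A gene near 0 UMIs in 1 class could reach 20 only through the other class, so list counts are set in part by this filter. Of 8289 genes, 711 (8.58%) were higher and 610 (7.36%) lower in monocytes, with a median log2 ratio over all genes of 0.09. Without mixed barcodes, 6664 genes were measured, of which 569 (8.54%) were higher and 621 (9.32%) lower. These percentages are the background for each list below. C1q itself was used by the gate and is no result.

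Genes of resident macrophages were lower in monocytes almost throughout. Of 20 measured genes of that list, 19 were lower and 0 higher, with a median log2 ratio of -4.45, and the counts were 19 and 0 without mixed barcodes as well. Only 10 of these genes reached 20 UMIs in the monocytes alone. The others were measured through their macrophage UMIs, so the count and the median are set in part by that filter. Mrc1 stood at 45.5 CPM (37.1 to 55.4) in monocytes and 844 CPM (755 to 942) in macrophages, 18.5-fold (14.8 to 23.4) lower. Cd163, the haemoglobin scavenger receptor, had 1 UMI in monocytes and 60 in macrophages. Cd209f, a C-type lectin of the DC-SIGN family, had 0 UMIs in monocytes, a limit of 1.37 CPM, and 333 CPM (278 to 396) in macrophages, at least 244-fold lower, although 85 of its 127 macrophage UMIs were in 1 cell. Fcrls, a marker of tissue-resident macrophages in mice, was 147-fold (76.2 to 326) lower, with UMIs in 25 of 49 macrophages. Among genes outside the list, Slc13a3, a dicarboxylate transporter, Ms4a7, a membrane protein of macrophages, and Clec4b1, a C-type lectin, were among the 12 lowest: Ms4a7 was at 9.56 CPM in monocytes and 448 CPM in macrophages.

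Classical monocyte genes were mostly higher in monocytes, with 12 higher and 2 lower of 18 measured, and 13 and 0 of 17 without mixed barcodes. Ly6c2 was at 284 CPM (262 to 307) in monocytes and 26.2 CPM (12.6 to 48.2) in macrophages, 10.8-fold (5.84 to 22.7) higher. Chil3 was at 1337 CPM (1289 to 1386) in monocytes and 160.0 CPM (122 to 205) in macrophages, 8.36-fold (6.49 to 11) higher, and the haptoglobin gene Hp was 22.3-fold (12.8 to 43.3) higher. Ccr2 was 2.55-fold (1.87 to 3.58) higher and Plac8 8.66-fold (6.74 to 11.3) higher. Itgam, the integrin CD11b, and F13a1 were lower, 2.37-fold (2.07 to 2.71) and 2.09-fold (1.74 to 2.49), and both lost the call without mixed barcodes, at 1.74-fold and 1.58-fold lower. Of the patrolling list, 6 of 12 genes were higher and 2 lower, and 7 and 1 without mixed barcodes. Pglyrp1, a peptidoglycan-binding protein, was at least 25.2-fold higher with 0 macrophage UMIs, and Eno3, the muscle-type enolase, was 28.8-fold (5.10 to 1146) higher. Fcgr4 itself was not called, at 184 CPM in monocytes and 325 CPM in macrophages.

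Several of the highest ratios came from few barcodes. Cst6, Sprr1a and Asprv1, genes of the differentiating epidermis, were among the 12 highest, and 99.5%, 97.9% and 84.9% of their monocyte UMIs were in mixed barcodes. Retnlg, a resistin-like gene of neutrophils, had 88.8% there, and its log2 ratio turned to -1.89 with cells thinned to 3000 UMIs before the gate. Mmp12 was at least 24.5-fold higher, with 424 UMIs in 6 monocytes and none in the 49 macrophages. Against macrophages of any MHC class II level, which held 19.7% of the Mmp12 UMIs of the library, the log2 ratio turned to -0.27. Genes of the 12 highest that were spread more widely were Slc7a11, the cystine transporter, Gadd45a, a stress response gene, and Slpi, a secreted protease inhibitor. Slc7a11 was at 573 CPM (541 to 605) in monocytes and 34.1 CPM (18.2 to 58.3) in macrophages. Gadd45a was 30.6-fold (8.4 to 253) higher and Slpi 10.2-fold (7.49 to 14.2) higher. The neutrophil list summed to 4727 CPM in monocytes and 115 CPM in macrophages, and its part in genes that neutrophils share, such as Slpi, Hp, Il1b and Clec4e, was not tested. Slc7a11 UMIs were in 187 of 340 monocytes and 3 of 49 macrophages.

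Cytokine genes divided between the classes, with 5 higher and 3 lower in monocytes of 14 measured, and 4 and 2 of 12 without mixed barcodes. Il1b was at 5521 CPM (5423 to 5620.4) in monocytes and 2588 CPM (2429 to 2755) in macrophages, 2.13-fold (2.0 to 2.28) higher, and Il1a was 2.99-fold (1.59 to 6.34) higher. Il10, the anti-inflammatory cytokine, went the other way, with 5.47 CPM (2.82 to 9.55) in monocytes and 239 CPM (192 to 293) in macrophages, 43.7-fold (23.8 to 87.6) lower. With 12 UMIs in monocytes, Il10 was measured through its macrophage UMIs. Tnf was 2.39-fold (1.94 to 2.94) lower, and 1.41-fold lower without mixed barcodes, which was not called. Csf1 and Il6 were higher over all monocytes, 7.90-fold (2.13 to 66.2) and 3.02-fold (1.97 to 4.88), with 93.4% and 38.4% of their monocyte UMIs in mixed barcodes.

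Chemokines were lower in monocytes for 8 of 15 measured genes and higher for 1, against 7 and 1 of 15 without mixed barcodes. Ccl8 was 106-fold (67.1 to 179) lower and Ccl12 84.4-fold (43.2 to 189) lower, both ligands that draw monocytes and other leukocytes, and macrophage UMIs were in 10 and 12 of 49 cells. Ccl2, the main ligand of Ccr2, was at 232 CPM (213 to 253) in monocytes and 1631 CPM (1505 to 1764) in macrophages, 7.02-fold (6.24 to 7.91) lower. Cxcl10, an interferon-induced ligand for T cells, was 4.77-fold (4.23 to 5.38) lower. Cxcl3 alone was higher, 5.32-fold (3.14 to 9.82), and 381 of its 429 monocyte UMIs were in subgroup 5. Cxcl2 was high in both classes, at 8475 CPM in monocytes and 7408 CPM in macrophages.

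Of the interferon response list, 9 of 28 genes were lower and 2 higher in monocytes, and 8 and 2 without mixed barcodes. Ifit1, an antiviral RNA-binding protein, was at 25.1 CPM (18.9 to 32.6) in monocytes and 422 CPM (359 to 493) in macrophages, 16.9-fold (12.3 to 23.3) lower, and Ifit2 had 1 UMI in monocytes and 104 in 12 macrophages. Rsad2, which encodes viperin, was 7.31-fold (5.84 to 9.15) lower. Slfn4 and Slfn1, of the schlafen family, were the 2 that were higher, 7.99-fold (1.36 to 322) and 2.95-fold (1.22 to 9.33).

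Matrix, growth factor and coagulation genes were higher in monocytes for 12 of 25 genes and lower for 4, and for 10 and 3 of 22 without mixed barcodes. Thbs1 was at 901 CPM (862 to 942) in monocytes and 197 CPM (155 to 247) in macrophages, 4.58-fold (3.64 to 5.85) higher. F10, coagulation factor X, was at 212 CPM (193 to 232) in monocytes and 21 CPM (9.06 to 41.3) in macrophages, 10.1-fold (5.09 to 23.6) higher, and F5, factor V, was 10.4-fold (1.80 to 418) higher. Mmp8, a collagenase, was 12.3-fold (4.16 to 60.3) higher. Areg, the growth factor amphiregulin, was 16.9-fold (4.63 to 141) higher, with 60% of its monocyte UMIs in mixed barcodes. Igf1, a growth factor of tissue macrophages and fibroblasts, was 7.32-fold (5.29 to 10.2) lower.

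Receptors and sensors were called in both directions. Of chemoattractant receptors and adhesion molecules, 5 of 22 were higher and 4 lower in monocytes, and 8 and 2 without mixed barcodes. Itgb7, an integrin β chain, was 21.3-fold (5.83 to 177) higher and Ltb4r1, the leukotriene B4 receptor, 4.34-fold (2.25 to 9.62) higher, whereas C3ar1, the complement C3a receptor, was 7.65-fold (5.69 to 10.3) lower. Of pattern recognition genes, 5 of 24 were higher and 6 lower, and 7 and 3 without mixed barcodes. Clec4e, the receptor Mincle, was at 938 CPM (898 to 979.7) in monocytes and 239 CPM (192 to 293) in macrophages, 3.93-fold (3.19 to 4.91) higher, and Mefv, which encodes pyrin, was 7.06-fold (3.54 to 16.5) higher. Fcgr1, the high-affinity IgG receptor, was 3.84-fold (2.75 to 5.32) lower.

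Eicosanoid genes differed by enzyme, with 4 higher and 4 lower of 13, and 4 and 4 of 11 without mixed barcodes. Ptgs2 was 2.61-fold (2.27 to 3.01) higher and Lta4h, which makes leukotriene B4, 4.86-fold (1.61 to 24.1) higher, while Hpgds, the haematopoietic prostaglandin D synthase, was 19.1-fold (10.7 to 35.7) lower and Tbxas1, the thromboxane synthase, 15.4-fold (6.89 to 37.5) lower. Ptgs1, the constitutive cyclooxygenase, was called higher, but 97.5% of its monocyte UMIs were in mixed barcodes, and its log2 ratio was -3.69 without them. Of lipid and lysosome genes, 5 of 22 were higher and 7 lower, and 3 and 7 without mixed barcodes. Lgals3, the lectin galectin-3, was 2.53-fold (2.26 to 2.83) higher, and Apoe, the lipid carrier, 3.87-fold (3.66 to 4.09) lower. Fabp5, a fatty acid-binding protein abundant in keratinocytes, was 9.51-fold (7.91 to 11.5) higher, with 95.3% of its monocyte UMIs in mixed barcodes and 1.66-fold lower without them.

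The remaining lists also held calls in both directions. Of 12 iron and heme genes, 2 were higher and 3 lower (1 and 3 of 11 without mixed barcodes), with Blvrb, biliverdin reductase B, 3.96-fold (3.33 to 4.70) lower. Of 9 alternative activation genes, 3 were higher (Chil3, Ear2 and Slc7a2) and 1 lower (Mrc1), and 4 and 1 of 8 without mixed barcodes. Arg1 was not called, at 214 CPM (195 to 234) in monocytes and 385 CPM (326 to 453) in macrophages. Of 30 glycolysis and hypoxia genes, 5 were higher and 1 lower, and 5 and 2 of 28 without mixed barcodes. Of 18 inhibitory feedback genes, 1 was higher and 4 lower, and 2 and 3 of 17 without mixed barcodes. Of 27 transcription factors, 1 was higher and 4 lower, and 2 and 5 without mixed barcodes. Maf, which drives macrophage genes, was 8.34-fold (6.60 to 10.6) lower and Batf3, needed for cross-presenting dendritic cells, 15.5-fold (8.0 to 31.9) lower. Of 13 proliferation genes 1 was higher, Top2a, a DNA topoisomerase with 51.6% of its monocyte UMIs in mixed barcodes, and 3 were lower, among them Mcm3 and Mcm5 of the replicative helicase. Without mixed barcodes 0 of 10 were higher and 3 lower, and the log2 ratio of Top2a turned to -1.32 against macrophages of any MHC class II level.

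**Figure D3:**
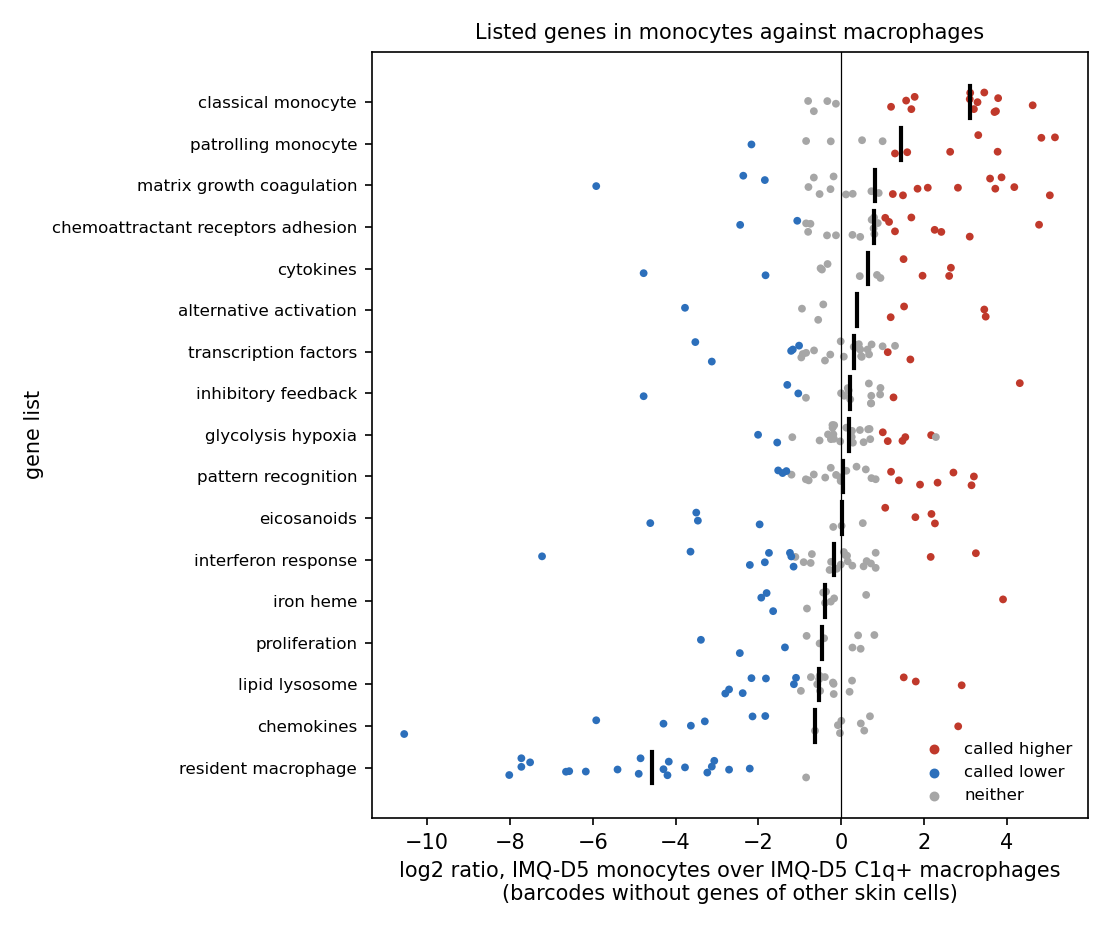
log2 ratio of IMQ-D5 monocytes over IMQ-D5 C1q-positive macrophages (horizontal) for each measured gene of the 17 lists (rows), without mixed barcodes, with black bars at list medians. The resident macrophage list lies left of 0, with 19 of 20 genes called lower, and the classical monocyte list lies mostly right of 0, with 13 of 17 called higher.

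The treatment contrast within the gate set 340 IMQ-D5 monocytes against 13 Ctrl monocytes with 83807 UMIs in all. Of 7903 genes, 284 (3.59%) were higher and 268 (3.39%) lower in IMQ-D5 monocytes, and without mixed barcodes 100 of 6098 (1.64%) were higher and 225 (3.69%) lower. The median log2 ratio over all genes was -0.10. This median, like the one against macrophages, puts genes with 0 UMIs in 1 class at the floor of 3 UMIs, so some of its ratios are bounds. Socs1, with 23 UMIs in IMQ-D5 and 0 in Ctrl, entered at -1.77, which is a lower bound.

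Chil3 was among the 12 highest genes of this contrast. Cst6 and Fabp5 had higher ratios, with 99.5% and 95.3% of their IMQ-D5 UMIs in mixed barcodes and no call without them. Chil3 was at 1337 CPM (1289 to 1386) in IMQ-D5 monocytes and 71.6 CPM (26.3 to 156) in Ctrl monocytes, 18.7-fold (8.57 to 50.9) higher, and 18.6-fold higher without mixed barcodes. Per cell it had a median of 1 UMI and a highest value of 184 in 314 IMQ-D5 cells, against a median of 0 and a highest value of 4 in 10 Ctrl cells, without mixed barcodes. Ly6c2 was at 284 CPM (262 to 307) in IMQ-D5 and 561 CPM (412 to 746) in Ctrl monocytes, 1.98-fold (1.44 to 2.66) lower, below the fold needed for a call. Of the classical list, 4 of 18 genes were higher (Chil3, Hp, Vcan and Ccr2) and 1 lower (Ly6c1, with 94.8% of its IMQ-D5 UMIs in mixed barcodes). Without mixed barcodes 4 of 17 were higher and 1 lower, which was Ms4a4c in place of Ly6c1. Hp was 2.95-fold (1.90 to 4.84) higher, Vcan, which encodes the proteoglycan versican, 2.35-fold (1.34 to 4.56) higher and Ccr2 2.14-fold (1.19 to 4.31) higher.

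Several genes described above for subgroups 3 and 5 had no UMI in the Ctrl members, while others, such as Adgre4 and Nr4a1, had 4 and 42. Fcgr4 was at 184 CPM (167 to 203) in IMQ-D5 monocytes and had 0 UMIs in 13 Ctrl cells, a limit of 35.8 CPM, at least 5.15-fold higher. Arg1 (at least 5.97-fold higher), Cxcl3 (at least 5.46-fold) and Mmp12 (at least 5.39-fold) had 0 UMIs in Ctrl as well, and their IMQ-D5 UMIs were in 8, 28 and 6 cells. Subgroups 3 and 5 were 19.4% and 3.82% of the IMQ-D5 members, and the exact 95% interval of 0 in 13 cells reaches 24.7%. With 13 Ctrl cells, the absence of these genes therefore cannot show that either subgroup was scarcer there. Fcgr4 had a UMI in 37.9% of all IMQ-D5 members, above that limit. Among IMQ-D5 members thinned to equal depth it had a UMI in 20.6%, below the limit. Of the patrolling list, 3 of 12 genes were higher and 0 lower, and 2 and 0 without mixed barcodes.

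Chemokines were higher in IMQ-D5 monocytes for 4 of 13 genes and lower for 1, which was Ccl7 over all members and Ccl2 without mixed barcodes. Cxcl2 was at 8475 CPM (8354 to 8598) in IMQ-D5 and 2422 CPM (2100.5 to 2779) in Ctrl monocytes, 3.50-fold (3.05 to 4.04) higher. Ccl5, a chemokine that attracts T cells and monocytes, was at 286 CPM (265 to 309.8) in IMQ-D5 and 23.9 CPM (2.89 to 86.2) in Ctrl monocytes, 12-fold (3.31 to 99.3) higher, and Cxcl1 was 5.88-fold (3.09 to 12.9) higher. Ccl7, another ligand of Ccr2, was 4.28-fold (3.45 to 5.27) lower over all members but 4.88-fold higher, and not called, without mixed barcodes, where it had 85.7 CPM in IMQ-D5 and 17.6 CPM in Ctrl. Il1b was not called, at 5521 CPM in IMQ-D5 and 4188 CPM in Ctrl monocytes, beside a neutrophil list at 4727 CPM in IMQ-D5 and 3902 CPM in Ctrl members. Without mixed barcodes Il1b was at 7831 CPM in IMQ-D5 and 4515 CPM in Ctrl, 1.73-fold higher and not called. The neutrophil list was then lower in IMQ-D5, at 2430 CPM against 3320 CPM in Ctrl. Il6, a cytokine of acute inflammation, was 2.92-fold (1.24 to 9.06) higher, and Tnfsf9, the ligand of 4-1BB, 2.09-fold (1.51 to 2.83) lower.

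Thbs1 was 3.15-fold (2.11 to 4.92) higher and F10 3.56-fold (1.51 to 11) higher in IMQ-D5 monocytes, as part of 5 higher and 3 lower of 24 matrix, growth factor and coagulation genes. Without mixed barcodes these were 5 higher and 1 lower of 20, and Fn1 and Timp2 were no longer called lower. Pla2g7, which degrades platelet-activating factor, was 4.08-fold (1.74 to 12.6) higher, and Ifitm1, an interferon-induced membrane protein, was at 818 CPM (781 to 857) in IMQ-D5 and 95.5 CPM (41.2 to 188) in Ctrl monocytes, 8.57-fold (4.34 to 19.9) higher. Wfdc21, a small secreted protein, was at least 5.43-fold higher and Camk2d, a calmodulin-dependent kinase, at least 3.36-fold higher, both against 0 Ctrl UMIs. Lower in IMQ-D5 monocytes were Klf4 and Egr1, early-response transcription factors, by 2.94-fold (2.32 to 3.69) and 2.18-fold (1.61 to 2.89), with 64.1% and 68.1% of their IMQ-D5 UMIs in mixed barcodes, and by 3.84-fold and 4.39-fold without those barcodes. Vegfa, the endothelial growth factor, was 4.72-fold (2.04 to 9.69) lower. Of 24 interferon response genes 1 was higher, Ifih1, and 2 were lower, Stat2 and Ifi205. Ifi205 had 84% of its IMQ-D5 UMIs in mixed barcodes and was not called without them, and its log2 ratio turned to 0.31 with no C1q UMI allowed and to 0.33 with fewer than 10 MHC class II UMIs.

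The genes with the lowest ratios were those of fibroblasts. Col1a1 was at 1046 CPM (1003 to 1089) in IMQ-D5 and 13913 CPM (13126 to 14735) in Ctrl monocytes, and at 61.2 and 422 CPM without mixed barcodes. Col1a2, Col3a1, Sparc, Ccdc80, Serpinf1, Timp2, Pcolce, Serpinh1 and Adamts2, all matrix or secreted genes of fibroblasts, were also among the 12 lowest. With fewer than 10 MHC class II UMIs allowed, the log2 ratio of Col1a1 turned to 1.52. One Ctrl barcode had 25.9% of its UMIs from the 8 fibroblast markers and another 53.9% from the vessel, nerve, pigment and blood list. The fibroblast list summed to 6065 CPM in IMQ-D5 and 50449 CPM in Ctrl members, and to 259 and 1845 CPM without mixed barcodes. The part of these other cells' transcripts in the remaining differences of this contrast was not tested.

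**Figure D4:**
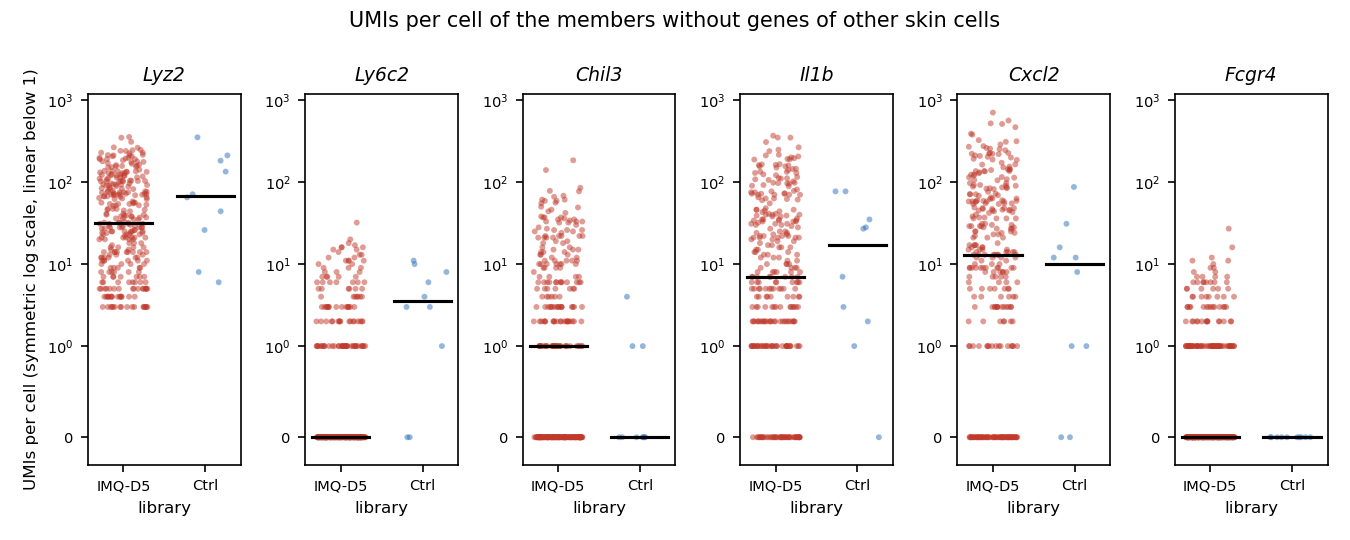
UMIs per cell (symmetric log scale, linear below 1) of 6 genes in the 314 IMQ-D5 and 10 Ctrl members without mixed barcodes, with bars at the medians. Chil3 reaches 184 UMIs in IMQ-D5 cells and 4 in Ctrl cells, while the Il1b values of both libraries overlap. Lyz2 is a gene of the gate.

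How much of each transcript these monocytes held in the treated skin was read from the share of each gene's IMQ-D5 UMIs that they held. They had 1.55% of all UMIs of the cells past the filters, but 81.5% (80.2 to 82.7) of Chil3, 79.9% of Adgre4, 63.1% of F10 and 53.8% of Fcgr4. C1q-positive macrophages of any MHC class II level held 4.08% of Chil3 and 30.4% of Fcgr4. Of Il1b, the monocytes held 31.5% (31 to 31.9), those macrophages 7.44% and the cells with 5% or more S100a8 and S100a9 UMIs 28.7%. Cxcl2 gave 21.2% in monocytes, 8.06% in macrophages and 24.5% in the S100a8 and S100a9 cells, and Ccl4 24.4%, 18.4% and 1.24%. Of Il10 the monocytes held 6.74% (3.53 to 11.5) and the macrophages 65.2%. Il6, Cxcl1 and Ccl2 were mostly elsewhere, with 1.76%, 1.41% and 0.714% in monocytes. No UMI of Il23a, whose product sustains IL-17-producing T cells, was found in the 340 monocytes among 212 in the library, with an exact 95% interval up to 1.72%, and none of Il12b among 95.

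**Figure D5:**
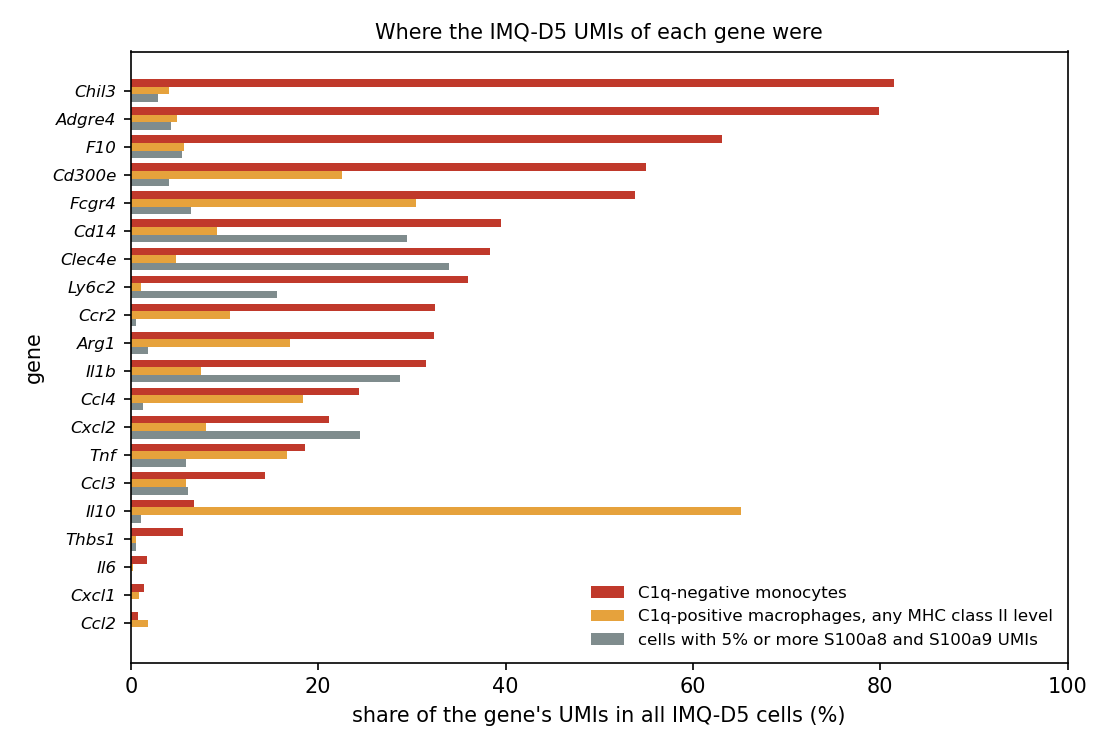
Share of the IMQ-D5 UMIs of 20 genes (horizontal, percent of the UMIs in all cells past the filters) in C1q-negative monocytes, C1q-positive macrophages of any MHC class II level, and cells with 5% or more of their UMIs from S100a8 and S100a9. Monocytes hold 81.5% of Chil3 and 31.5% of Il1b, and macrophages 65.2% of Il10.

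Cells near the limits of the gate were few, and are described with no test. The 13 IMQ-D5 members with 1 or 2 C1q UMIs had Chil3 at 748 CPM and Mrc1 at 22.7 CPM, and the 2 cells just outside, with 3 or 4 C1q UMIs, had Chil3 at 3258 CPM and no Mrc1. The 7 members with 15 to 19 MHC class II UMIs had Plac8 at 495 CPM, and the 2 cells with 20 to 24 had it at 264 CPM. The 20 members with exactly 3 Lyz2 UMIs had Il1b at 1351 CPM, and the 20 cells with 2 had it at 3360 CPM and Mrc1 at 190.0 CPM. The 6 members with 4 to 5% S100a8 and S100a9 UMIs had the neutrophil genes Retnlg at 3114 CPM and Csf3r at 225 CPM. The 1 cell with 5 to 6% had them at 912 and 498 CPM, with Chil3 at 2819 CPM. In the 327 members without a C1q UMI, Retnlg was at 266 CPM and Csf3r at 62.2 CPM.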

How the data were processed

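Single-cell RNA of mouse dorsal skin was measured in 1 IMQ-D5 and 1 Ctrl library (3′ v2 chemistry). The deposited matrices hold UMI counts that the authors made with Cell Ranger, version 3.0.2 with build mm10 per the submitters' processing notes and 5.0.0 per the file headers. From them, UMIs were summed over the cells of a class and given as CPM with exact Poisson intervals, and ratios had exact conditional binomial intervals. These cover counting error only, since UMIs of 1 library are not replicates. A class with 0 UMIs was put at 3 UMIs over the class ("at least"). Doublets were marked with Scrublet and kept, and subgroups were made with Scanpy 1.11.5 and Leiden clustering at resolution 0.5 (1000 variable genes, 20 principal components, 15 neighbours). GENCODE M21 placed 27645 of 27998 gene IDs on GRCm38.

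In simulated data with 200 genes changed 4-fold, 99.5% were called in the macrophage comparison, as were 1.34% of 8066 unchanged genes, and 93.5% and 1.48% of 7659 in the treatment comparison. The simulated counts had counting error only and no variation between cells. These rates therefore do not cover genes whose UMIs lay in a few cells. The text names the 12 highest and 12 lowest genes by the interval bound nearer to equality, among genes with at least 100 UMIs, 50 CPM and 3 times the estimated free RNA level, in each comparison, up to 4 called genes per list and direction, and the 5 marker genes. Other genes named, those of the subgroups and library shares included, were chosen after their values were seen. The members and lists were chosen with earlier results of these data known. Some genes are not reported here.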

Additional observations from a re-analysis of the deposited data

How the results depend on the processing

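The log2 ratio of the member share, IMQ-D5 over Ctrl, was 4.99, and stayed between 4.92 and 5.32 under each alternative run. Counts of called genes moved by more than 1.5 times as follows. Thinning cells to 3000 UMIs before the gate gave 390 genes higher in monocytes than in macrophages, and 56 higher and 113 lower in IMQ-D5 than in Ctrl monocytes. Leaving out mixed barcodes, an alternative chosen after seeing the data, gave 100 higher in IMQ-D5. A minimum of 100 UMIs gave 369 higher and 224 lower than in macrophages, and 130 lower in IMQ-D5. Subtracting estimated free RNA gave 357 higher and 1347 lower than in macrophages, and 126 higher and 407 lower in IMQ-D5. The estimate was the median, over fibroblast and keratinocyte markers, of class CPM over library CPM. It was 30.8% in IMQ-D5 members, 7.76% in macrophages and 11.3% in Ctrl members. Mixed barcodes were included, so their other-cell genes were counted as free RNA. In IMQ-D5 members the fibroblast list was at 6065 CPM with and 259 CPM without mixed barcodes, and the keratinocyte list at 6943 and 396 CPM. Leaving out each gene's highest cell gave 31 lower in IMQ-D5.

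Of 2107 values of named genes, over 173 pairs of gene and comparison, 2063 kept their sign, 317 of which moved outside their interval, and 44 reversed. The cause was not tested. The log2 ratios that reversed in IMQ-D5 against Ctrl monocytes were the following. With no C1q UMI allowed they were Ifi205 0.31, Pcolce 1.82, Serpinh1 1.04, Gas6 0.32, Hpgd 0.22, Adamts2 2.26, Sparc 0.29, Serpinf1 2.55, Ccl7 2.33 and Ccdc80 0.90. With fewer than 10 MHC class II UMIs they were Col3a1 1.67, Ifi205 0.33, Pcolce 2.02, Col1a2 1.5, Gas6 1.69, Hpgd 0.48, Sparc 1.69, Serpinf1 2.63, Ccl7 4.37, Col1a1 1.52, Timp2 1.22 and Ly6c1 0.61. With the highest cell left out they were Pcolce 1.69, Serpinh1 0.92, Hpgd 0.24, Adamts2 1.96, Serpinf1 2.19, Ccl7 1.69 and Ccdc80 0.80. Thinning to 3000 UMIs gave Nlrp3 0.38, and leaving out mixed barcodes gave Cxcr2 0.064, Ccl7 2.29 and Cst6 -1.82. Against macrophages, thinning gave Adm -0.84, Hk1 -0.31, Top2a -1.25, Retnlg -1.89 and Cst6 -1.20, leaving out mixed barcodes Ptgs1 -3.69 and Fabp5 -0.73, macrophages of any MHC class II level Mmp12 -0.27 and Top2a -1.32, and free RNA subtracted Fabp4 -0.94 and Top2a -0.36. A sign set only by the floor of 3 UMIs gave no value, in 18 cases over 14 pairs.

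No paired analysis was possible because each condition had 1 library, and for the same reason no library was left out. Depth limited the Ctrl class, whose floor was 35.8 CPM over 13 cells.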
